A study of Mus musculus with 6 samples.

Results

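The integrin and laminin genes are 37 of the 31053 genes counted in nuclei of the mouse colon. They were taken by symbol alone. The symbol had to begin as that of an integrin alpha chain, or be the stem of an integrin beta or laminin chain followed by 1 digit only. They comprise 18 integrin alpha, 8 integrin beta and 11 laminin chain genes. Single-nucleus RNA was counted in 6 droplet libraries from total colon of wild-type C57BL/6J mice. Nuclei had been sorted on a DNA stain and on a nuclear tag (INTACT), with the aim of taking the enteric nervous system, the neurons and glia of the gut wall; the sources used here do not name the driver of the tag. The groups were 2 Control libraries, 3 Stress libraries (7 days of daily restraint) and 1 Dexamethasone library (injections of this synthetic glucocorticoid, also over 7 days). All groups shared genotype and strain, and the dose, the age of the mice and the details of the control treatment are not given in the sources used here. No label ties a library to an animal, and p-values therefore reflect only how far these libraries scatter, which may be technical.

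Integrins are receptors made of 1 alpha and 1 beta chain that span the cell membrane and tie the matrix outside a cell to the cytoskeleton within it. Laminins are trimers of an alpha, a beta and a gamma chain and form, with type IV collagen, the fabric of basement membranes. In the gut wall such sheets lie under the epithelium, around smooth muscle cells and around the enteric ganglia, and the laminin chains differ between these places.

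The files held 58954323 UMIs (unique molecular identifiers, 1 for each captured transcript) in 11040 barcodes, and 3430 nuclei in 23 clusters passed the filters. Between libraries the share of barcodes kept ran from 14.9% to 52.7%, and the median depth of kept nuclei from 1628.5 to 3970 UMIs. Clusters were formed and named without the 37 genes: 881 nuclei were glia-like, 433 neuron-like, 435 epithelium-like, 313 smooth muscle-like, 205 fibroblast-like and 157 lymphatic endothelium-like. Smaller classes were macrophage-like (76 nuclei, with 10 or more per library in Stress only), cycling cell-like (65), vascular endothelium-like (38) and enteroendocrine-like (23). Clusters that could not be named held 189 and 138 nuclei in Control, 111, 155 and 151 under Stress and 60 under Dexamethasone. They belong to none of these classes. Neuron-like and glia-like nuclei together were thus fewer than the rest, whatever the sort. Libraries stood apart in ways that touch the results. Glial cluster 10, led by Arih1, Nr4a3 and Nr4a2, held 79 of 114 glia-like nuclei in Dexamethasone, but 9 of 203 and 6 of 138 in Control, and 14 of 124, 31 of 118 and 89 of 184 in Stress. Neuronal cluster 12, led by Nmu, held 42 of 62 neuron-like nuclei in Dexamethasone and 2 to 12 nuclei in each other library. Dexamethasone gave 3 epithelium-like nuclei, too few for a comparison. Levels are given as CPM, the UMIs of a gene per 1000000 UMIs of the class in a library. They were not divided by gene length and are compared between classes and libraries, not between genes.

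Of the 37 genes, 25 had at least 100 UMIs in the kept nuclei and 12 had fewer. For 17 of the 25, the class of highest median, out of 8 classes, was also the highest class in at least 4 libraries. For 13 of the 25 it was the highest in every library that had the class. The 13 include Itga4, which is not among the 17, as only 3 libraries had its class, macrophage-like. For 9 genes the range of the top class over libraries lay clear of the range of each of the other 7. Vascular endothelium-like nuclei are outside the 8 classes, since only Stress 2 had as many as 10 of them. In that library they held Itgb3 at 137 CPM (3 UMIs) and Lamb1 at 321 CPM (7 UMIs), above the highest class medians of these genes (66.6 and 153). The top class was epithelium-like for 5, smooth muscle-like, fibroblast-like and lymphatic endothelium-like for 4 each, glia-like for 3, cycling cell-like and macrophage-like for 2 each, and neuron-like for 1. Enteroendocrine-like nuclei and the unnamed clusters are outside these counts. These are descriptions of clusters of the same nuclei, not tests.

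**Figure D1:**
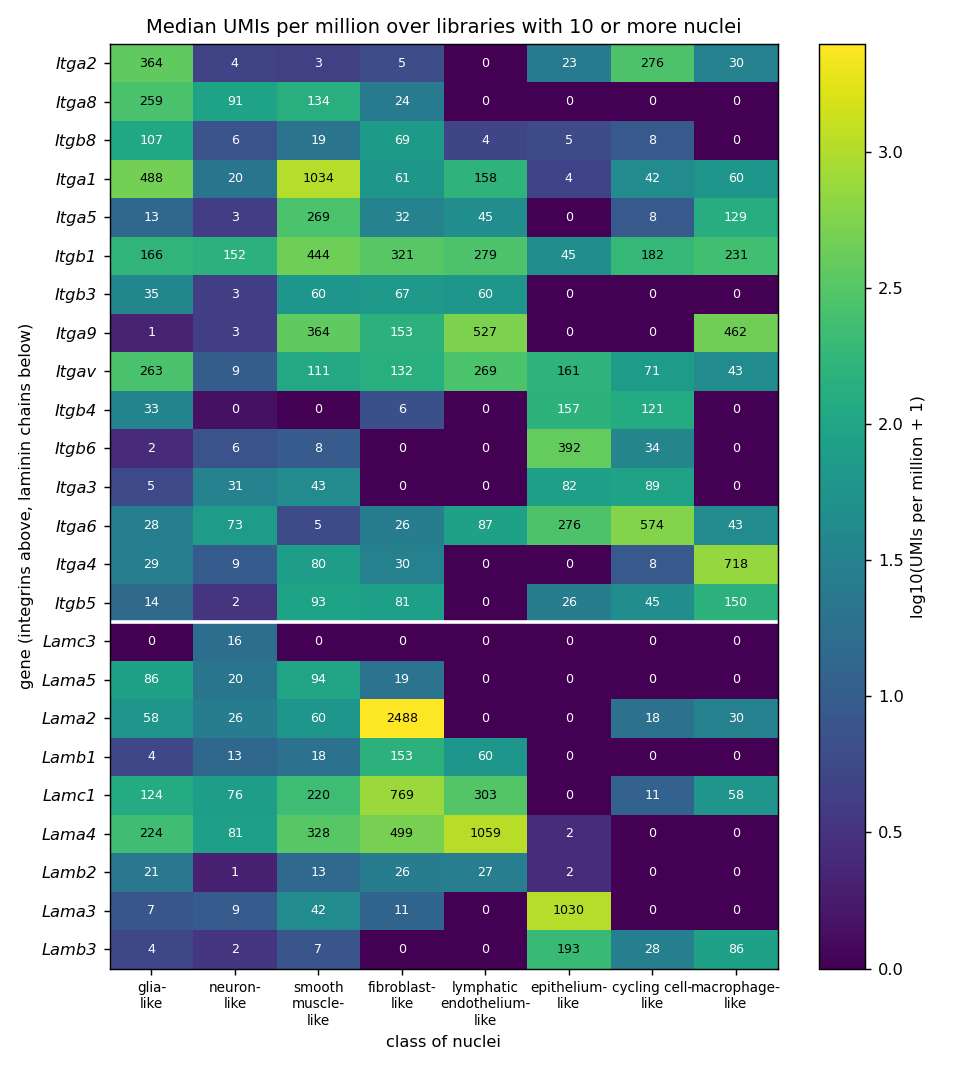
Median level of integrin and laminin genes with at least 100 UMIs, by class of nuclei, in CPM over libraries with 10 or more nuclei of it; the colour is log10 of the level plus 1 and the number in each cell is the level. Lama2 is brightest in fibroblast-like, Lama4 in lymphatic endothelium-like, Lama3 in epithelium-like and Itga1 in smooth muscle-like nuclei.

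The alpha chains of a pair of collagen receptors, Itga1 and Itga2, had different top classes, smooth muscle-like and glia-like. Itga1 was highest in smooth muscle-like nuclei of every library, with 1162 and 1499 CPM in the Control libraries, 827, 1118 and 949 under Stress and 816 under Dexamethasone. Glia-like nuclei came second (321 to 602), without reaching the muscle range. Itga2 was highest in glia-like nuclei in 6 of 6 libraries, with a lowest value of 177, a median of 364 and a highest of 422. Its median in neuron-like nuclei was 3.99, so glia and neurons lay far apart for this chain. Cycling cell-like nuclei, in second place at 232 to 382, overlapped the glia-like range. Unnamed cluster 13, led by Slc12a8 and Spdef, the second a factor of secretory epithelium, held Itga2 at 393 to 599 across libraries. Both genes lie on the minus strand of chromosome 13, Itga2 from 114833081 to 114932100 and Itga1 from 114953096 to 115101964 (GRCm38, GENCODE M21). Pelo lies within the span of Itga1 on the same strand, so their reads may not be fully separable. Itga11, another collagen-binding chain, had 52 UMIs and was highest in fibroblast-like nuclei in 6 of 6 libraries (10.7 to 84.6). Itga10 had 27 UMIs and no clear class.

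Receptors of the RGD motif, which is found in fibronectin, vitronectin and latent TGF-beta, were spread over more classes. Itga8, the nephronectin receptor chain, was highest in glia-like nuclei in 6 of 6 libraries: 247 and 201 in Control, 222, 320.2 and 271 under Stress and 339.9 under Dexamethasone. Smooth muscle-like nuclei, in second place at 98.1 to 155, did not reach that range. Itgav, the alpha chain that pairs with Itgb3, Itgb5, Itgb6 or Itgb8, had medians of 269 in lymphatic endothelium-like and 263 in glia-like nuclei, with overlapping ranges. Its lymphatic values were 49.7 and 539 (Control), 220.1, 219 and 504 (Stress) and 317 (Dexamethasone), so they differed widely between libraries. The lowest rests on 1 UMI. Glia markers (9 of 12 detected) summed to 1901 CPM in the lymphatic endothelium-like nuclei of Stress 3, against 45.0 to 110 in the other libraries. Their part in its value was not tested. Itgb8, whose pairing with Itgav activates latent TGF-beta, was at 122 and 112 (Control), 106, 107 and 75.6 (Stress) and 80.9 (Dexamethasone) in glia-like nuclei. It led there in 3 of 6 libraries only, as fibroblast-like nuclei ran from 0 to 172. Itgb6, the epithelial partner of Itgav, was highest in epithelium-like nuclei in 5 of 5 libraries, with a median of 392. Itga5, the fibronectin receptor chain, had its highest median (269) in smooth muscle-like nuclei, with 375 and 399.7 (Control), 112, 352 and 126 (Stress) and 185 (Dexamethasone). Itgb3, the partner of Itgav in the vitronectin receptor, was at 95.5 and 36.8 (Control), 56.4, 68.7 and 92.1 (Stress) and 64.4 (Dexamethasone) in fibroblast-like nuclei, which led in only 2 of 6 libraries. Itgb5, another partner of Itgav, was at 173, 149.5 and 0 in macrophage-like nuclei of the Stress libraries and 83.3 to 115 in smooth muscle-like nuclei of all libraries. Neither gene had a clear top class.

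Itgb1, the common partner of most of these alpha chains, was present in all 8 classes, with its highest median in smooth muscle-like nuclei (444, highest in 4 of 6 libraries) and 45.3 in epithelium-like nuclei. Its smooth muscle-like values were 567 and 349.7 (Control), 273, 449 and 439.6 (Stress) and 579.7 (Dexamethasone), and neuron-like nuclei held 119 to 240.1. Itga9, a chain needed for lymphatic valves, was highest in lymphatic endothelium-like nuclei in 5 of 6 libraries, at 497 and 539 in Control, 624, 596 and 515 under Stress and 451 under Dexamethasone. The macrophage-like range (129 to 508, Stress libraries) overlapped it.

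Among the chains of laminin receptors, the highest class was cycling cell-like for Itga6 and Itga3, epithelium-like for Itgb4 and smooth muscle-like for Itga7. Itga6, which pairs with Itgb1 or, in hemidesmosomes, with Itgb4, was highest in cycling cell-like nuclei (517 to 675 in the 4 libraries with at least 10 of them) and second in epithelium-like nuclei (155 to 459.9). In cycling cell-like nuclei the values were 615 and 534 (Control) and 675 and 517 (Stress 1 and 2). Unnamed cluster 4, with the crypt gene Lgr5 and Cftr among its leading genes, held Itga6 at 534 to 990.3. Itgb4 had its highest median in epithelium-like nuclei, at 143 and 138 (Control) and 246, 157 and 299 (Stress), and led there in 4 of 5 libraries. Itga3, another laminin-binding chain, had medians of 89.2 in cycling cell-like and 81.8 in epithelium-like nuclei, the latter from 64.1 and 110.4 (Control) and 123, 81.8 and 80.6 (Stress). Itga7, the laminin receptor chain of muscle, had 75 UMIs and was highest in smooth muscle-like nuclei in 6 of 6 libraries (19.2 to 82.8).

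Between neuronal clusters 14 and 8 Itga6 was uneven. The remaining neuronal cluster, 12, is not compared here. Cluster 14, led by Grik1 and Sst, held 255 and 121 CPM in Control, 238, 173 and 228 under Stress and 205 under Dexamethasone (7 nuclei). Cluster 8, led by Nos1 and Vip, held 0 to 43.4, below cluster 14 in every library. Lama4 ran the other way, at 143 and 157 (Control), 53.2, 76.9 and 123 (Stress) and 131 (Dexamethasone) in cluster 8 and 0 to 37.7 in cluster 14. Itga8 in cluster 8 was at 57.3 to 162.

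Leukocyte integrins were sparse. Itga4, the alpha chain of the leukocyte receptors for VCAM1 and MAdCAM1, reached 693, 718 and 991 CPM in the macrophage-like nuclei of Stress 1, 2 and 3, from 12, 24 and 23 UMIs. Lymphocyte genes such as Lef1 and Bank1 were also among the leading genes of that cluster, so the name may cover more than macrophages. Itgal (12 UMIs), Itgb2 (8), Itgae (28), Itgb7 (32) and Itgax (4), chains of lymphocyte and myeloid receptors, had their highest median there too. Itgam, the alpha chain of the myeloid complement receptor, had 0 UMIs among all 58954323 in the files, which allows up to 0.0509 CPM by counting error. It overlaps the gene model Gm49368 on the same strand, and reads in both may have been left out of its count. Itgad had 6 UMIs and Itga2b, the platelet chain, 40.

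The laminin alpha genes Lama2, Lama4 and Lama3 were each led by a different class. Lama2, the chain of muscle and nerve basement membranes, was highest in fibroblast-like nuclei of every library: 2445 and 2062 CPM in Control, 3005, 2532 and 2681 under Stress and 1965 under Dexamethasone. Smooth muscle-like nuclei, in second place, held 6.90 to 144. Lama4, the endothelial chain, was highest in lymphatic endothelium-like nuclei in 6 of 6 libraries, at 1044 and 1304 (Control), 1504, 1073 and 939 (Stress) and 685 (Dexamethasone). It was also found in fibroblast-like (368 to 879), smooth muscle-like (149.9 to 499), glia-like (207 to 291) and neuron-like nuclei (32.9 to 99.1). Lama3 was highest in epithelium-like nuclei, at 1647 and 993 (Control) and 1030, 1273 and 714 (Stress), with a median of 41.9 in the next of the 8 classes. Vascular endothelium-like nuclei, outside the 8, held it at 412 in Stress 2 (9 UMIs). Lama5, found in most adult basement membranes, was spread, with medians of 94.3 in smooth muscle-like and 85.7 in glia-like nuclei. In smooth muscle-like nuclei it was at 38.4 and 50 (Control), 140.1, 96.6 and 94.2 (Stress) and 94.4 (Dexamethasone). Lama1, a chain of embryonic basement membranes, had 17 UMIs, of which 14 were in fibroblast-like nuclei.

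The beta and gamma chains were also uneven. Lamb3, which joins Lama3 in the anchoring laminin of epithelia, was highest in epithelium-like nuclei in 5 of 5 libraries, with a median of 193. It was at 199.7 and 193 (Control) and 227, 149 and 138 (Stress). Lamb1 and Lamc1, which occur in many laminins, were highest in fibroblast-like nuclei in 6 of 6 libraries. Lamb1 was at 267 and 147 (Control), 127, 149 and 157 (Stress) and 225 (Dexamethasone). Lamc1 was at 573 and 884 (Control), 536, 722 and 1207 (Stress) and 816 (Dexamethasone). Lamb2, the beta chain of synaptic and vascular laminins, had 137 UMIs and no clear top class: lymphatic endothelium-like nuclei, with the highest median, held 0 to 41.8. Lamc3 was the 1 laminin chain whose highest median was neuronal, at 7.18 and 12.4 (Control), 26.3, 6.75 and 20.3 (Stress) and 19.2 (Dexamethasone) in neuron-like nuclei. Most of it lay outside them: unnamed cluster 3, led by Penk and Tac1, genes of excitatory enteric neurons, held 80 of its 144 UMIs. There Lamc3 was at 67.6 and 271 in Control, 126, 148 and 102 under Stress and 171 under Dexamethasone, above neuronal cluster 8 (9.85 to 31.9) in every library. Most of these levels rest on fewer than 10 nuclei, as cluster 3 had 32 and 2 in Control, 4, 11 and 9 under Stress and 7 under Dexamethasone. Cluster 3 scored as neuronal and was left unnamed because Skap1, on the T cell list, was among its 10 leading genes. Itgb8 also had 62 UMIs in cluster 3, against 31 in all neuron-like nuclei.

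**Figure D2:**
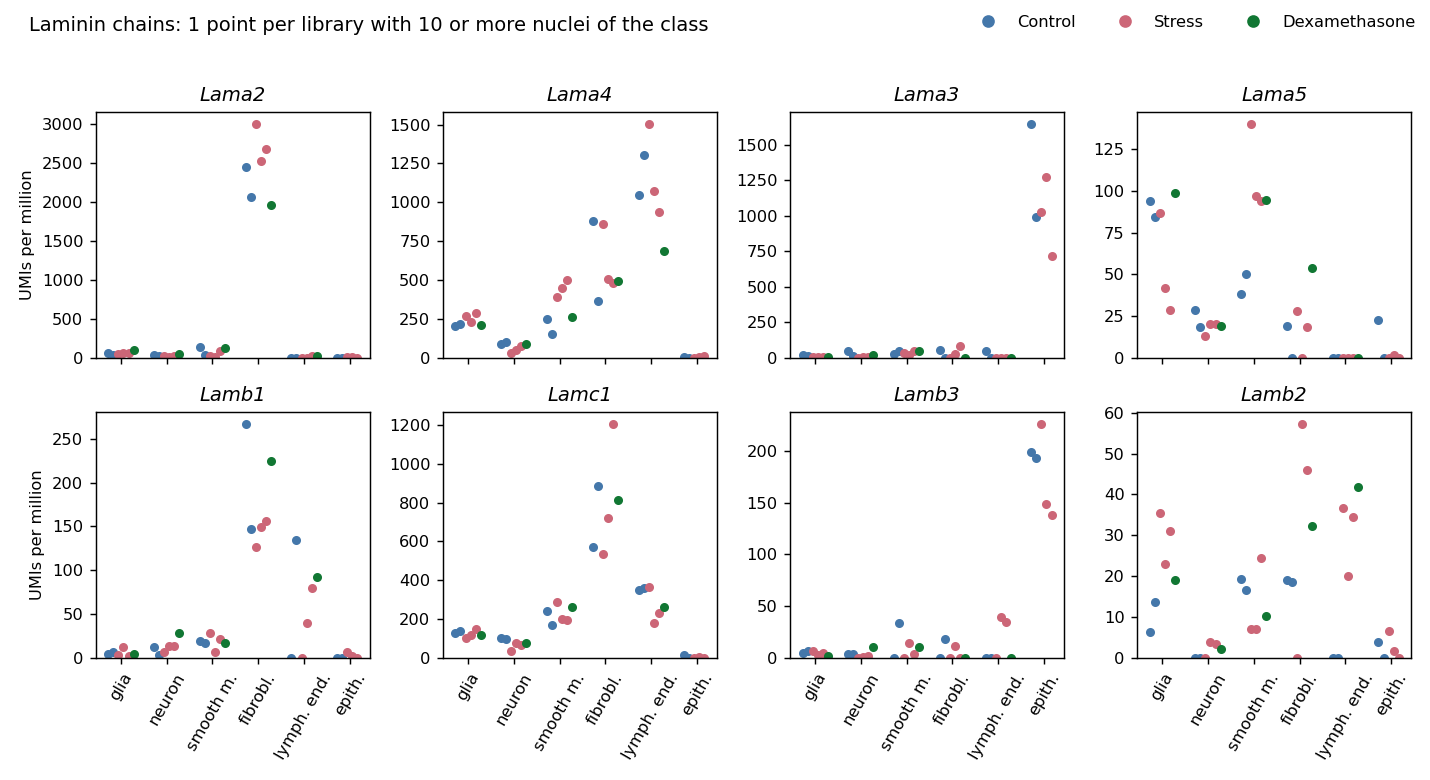
Levels of laminin chain genes (CPM) by class; each point is 1 library with 10 or more nuclei of the class, coloured by group. Lama2, Lamb1 and Lamc1 stand highest in fibroblast-like, Lama4 in lymphatic endothelium-like and Lama3 and Lamb3 in epithelium-like nuclei.

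Epithelial chains were the ones most thinned by the filter on nuclei. Kept nuclei held 22.0% of all UMIs, but 12.6% of those of Lamb3, 14.8% of Itgb4, 14.9% of Lama3 and 15.1% of Itgb6. By contrast they held 67.3% of Itga9 and 62.0% of Lama2. Most UMIs of these 4 epithelial chains in the files thus lay in barcodes removed for mitochondrial share, low gene number or doublet score.

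Whether daily restraint moved these genes was asked in 6 classes, with edgeR's quasi-likelihood test on UMIs summed per library and Benjamini-Hochberg adjustment over all genes tested (threshold 0.05). Only genes with enough counts enter a test. For the 11 genes that entered none, nothing can be said. No integrin or laminin gene passed in any class, by edgeR or by DESeq2's Wald test.

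In glia-like nuclei 0 of 15 tested genes passed, where 2.09% of all genes did, and an unadjusted p under 0.05 was found for 2 (13.1% of all genes). Lamb2 was at 6.40 and 13.7 CPM in Control and 35.5, 23.0 and 30.9 under Stress. All 3 Stress libraries lay above both Control libraries, at a log2 fold change of 1.5 ± 0.54 (SE; adjusted p = 0.228, edgeR), from 9 Control UMIs. Lama5 was at 93.9 and 84.4 in Control and 87.0, 41.9 and 28.6 under Stress, a log2 fold change of -0.96 ± 0.38 (adjusted p = 0.273, edgeR). Stress 1 fell between the Control values. Within glial cluster 9 alone Lama5 stood at 90.9 and 85.9 in Control and 81.6, 27.4 and 32.8 under Stress. Groups did not overlap for 3 of the 15 genes (Lamb2 and Lama4 higher, Itgb8 lower), against 29.2% of all genes. The median log2 fold change was -0.11 over the 15 and -0.01 over all genes.

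In neuron-like nuclei 0 of 10 tested genes passed (0.0% of all genes), and an unadjusted p under 0.05 was found for 2 (9.74% of all genes). Those 2 were laminin chains, both with lower values under Stress. Lama4 was at 89.8 and 99.1 in Control and 32.9, 49.2 and 75.3 under Stress (log2 fold change -0.73 ± 0.28, adjusted p = 0.459, edgeR). Lamc1 was at 98.8 and 96 in Control and 32.9, 77.1 and 65.1 under Stress (log2 fold change -0.62 ± 0.26, adjusted p = 0.502, edgeR). These 2 of 10 genes did not overlap between groups, against 26.2% of all genes. The lowest library, Stress 1, had 27 neuron-like nuclei, with 5 UMIs of each gene.

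In smooth muscle-like nuclei 0 of 12 tested genes passed (0.353% of all genes), and an unadjusted p under 0.05 was found for 4 (11.2% of all genes). Lama4 was at 249.8 and 149.9 in Control and 392, 449 and 499 under Stress. Every Stress library lay above both Control libraries, at a log2 fold change of 1.02 ± 0.31 (adjusted p = 0.226, edgeR). Itga5 was at 375 and 399.7 in Control and 112, 352 and 126 under Stress, all lower (log2 fold change -1.11 ± 0.44, adjusted p = 0.346, edgeR). Lama5 and Itga1 also lay apart, at log2 fold changes of 1.24 ± 0.54 (adjusted p = 0.412, edgeR) and -0.55 ± 0.25 (adjusted p = 0.428, edgeR).

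Non-overlap held for 5 of the 12 genes (Itgb5, higher under Stress, was the other), against 30.1% of all genes. The make-up of the class differed between groups: cluster 19, with no smooth muscle marker among its 10 leading genes, held 8 of 55 and 2 of 23 nuclei in Control and 20 of 68, 11 of 41 and 32 of 77 under Stress. Within cluster 5, led by Myh11 and Actg2, Lama4 stood at 279 and 168 in Control and 408, 400.1 and 493 under Stress, still without overlap. Lama5 overlapped there, at 11.6 and 56.1 against 115, 81.8 and 32.9. Itga5 in cluster 5 stayed apart by a small margin, at 453 and 449 against 136, 446 and 181. The part of the cluster mix in these values was not tested.

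In fibroblast-like nuclei 0 of 7 tested genes passed (1.45% of all genes), and an unadjusted p under 0.05 was found for 0 (11.6% of all genes). Lama2 was the 1 gene of 7 without overlap (28.9% of all genes), at a log2 fold change of 0.20 ± 0.24 (adjusted p = 0.809, edgeR). Lamb1 had the lowest estimate, -0.58 ± 0.44 (adjusted p = 0.675, edgeR), and Lamc1 stood at 0.09 ± 0.37.

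In epithelium-like nuclei 0 of 9 tested genes passed (0.109% of all genes), and an unadjusted p under 0.05 was found for 3 (9.59% of all genes). The 2 chains of the epithelial receptor that activates TGF-beta lay in opposite directions. Itgb6 was at 241 and 303 in Control and 570.0, 589 and 392 under Stress (log2 fold change 1.10 ± 0.37, adjusted p = 0.266, edgeR). Itgav was at 237 and 248 in Control and 84.2, 102 and 161 under Stress (log2 fold change -1.05 ± 0.38, adjusted p = 0.307, edgeR). Neither gene's groups overlapped.

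Itga6 and Itgb4, the chains of the hemidesmosome receptor, also stood higher without overlap, at 1.00 ± 0.41 (adjusted p = 0.402, edgeR) and 0.72 ± 0.41 (adjusted p = 0.617, edgeR). Itgb1 stood lower without overlap (-0.88 ± 0.60, adjusted p = 0.680, edgeR). In all, 5 of 9 genes did not overlap, against 29.2% of all genes. The estimates of Lama3 and Lamb3, chains of epithelial laminin, were -0.32 ± 0.37 and -0.12 ± 0.39. Nuclei per library were uneven, at 127 and 23 in Control and 79, 179 and 24 under Stress, and those of Stress 3 divided evenly between clusters 0 and 1. Within cluster 0, Itgb6 stayed apart (240.4 and 303 against 606, 603 and 355), as did Itga6 (142 and 248 against 488, 284 and 279). Itgav did not (254 and 248 against 69.7, 105 and 279).

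In lymphatic endothelium-like nuclei Itga9, Itgav and Lama4 could be tested. Of these 3, 0 passed (0.0% of all genes), while an unadjusted p under 0.05 was found for 0 (8.40% of all genes), and 0 were without overlap (24.8% of all genes). Their estimates were 0.03 ± 0.39, 0.06 ± 0.71 and -0.15 ± 0.35.

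**Figure D3:**
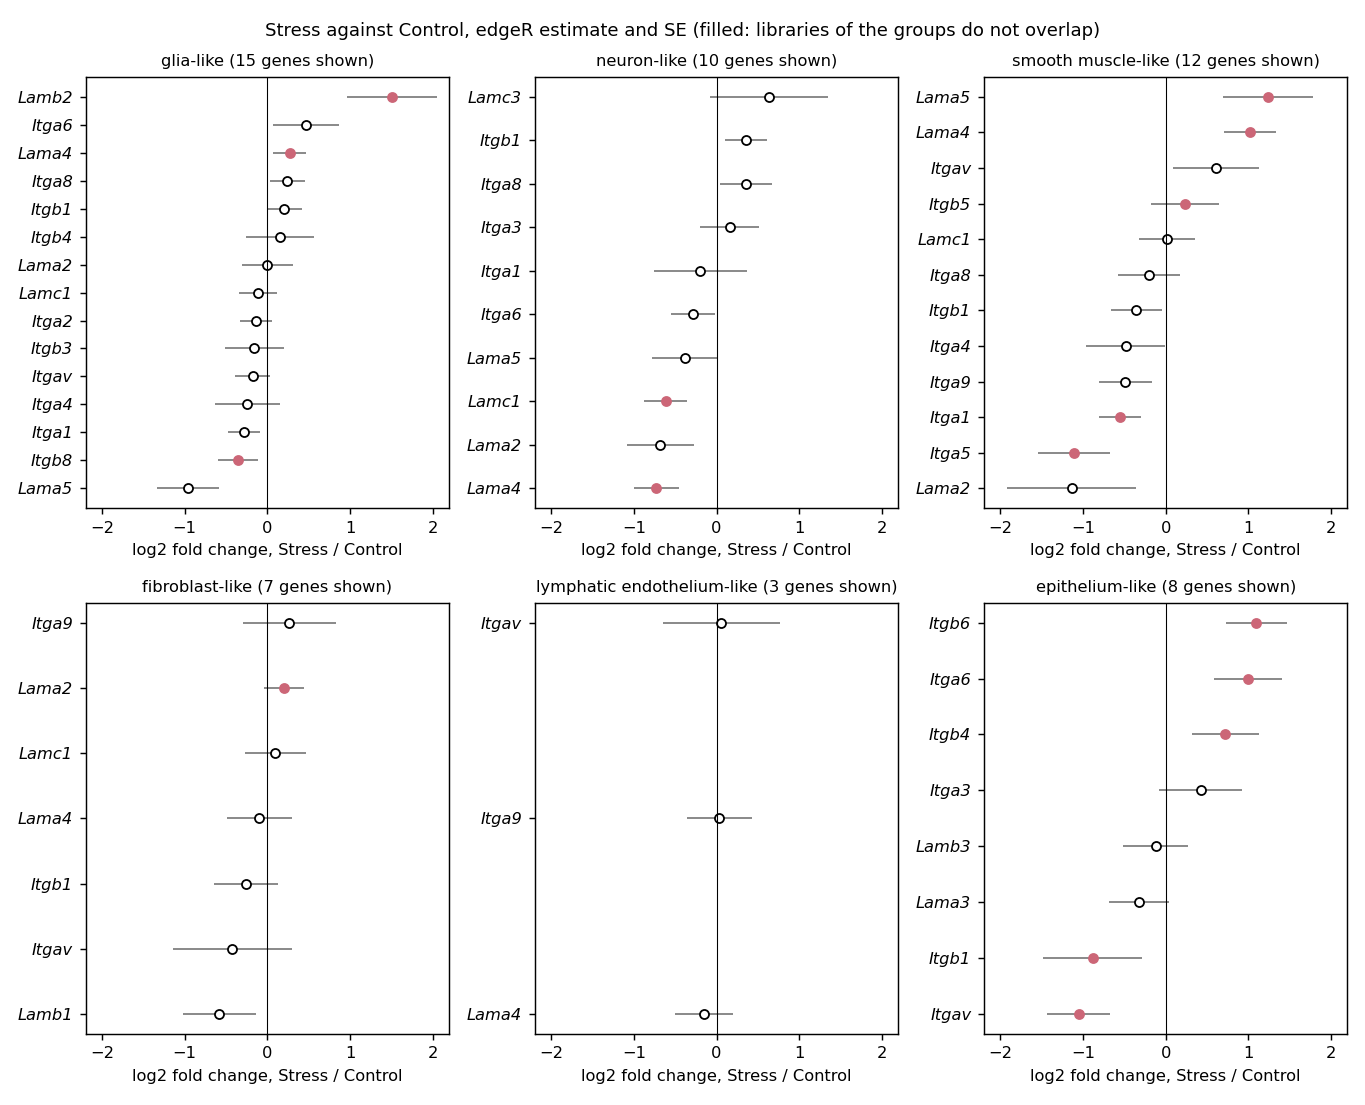
Log2 fold change of Stress over Control with its SE (edgeR) for tested integrin and laminin genes in 6 classes; filled points mark genes whose groups do not overlap. No gene passed an adjusted p of 0.05; the estimates range from -1.14 (Lama2 in smooth muscle-like nuclei) to 1.5 (Lamb2 in glia-like nuclei).

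Whether glia and neurons respond differently to restraint was tested as an interaction in 1 model over both classes. The difference passed for 0 of 16 tested genes (0.206% of all genes), by edgeR or by DESeq2, and an unadjusted p under 0.05 was found for 1 (8.04% of all genes). That gene was Lama4, with higher values in glia-like and lower values in neuron-like nuclei of Stress libraries, a difference of 1.06 ± 0.36 on the log2 scale (adjusted p = 0.301, edgeR).

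The Dexamethasone library was compared with Control in 5 classes, in a fit over all 6 libraries. It is a single library, assumed to vary like the others. Its counts were made with Cell Ranger 5.0.1 and the others with 4.0.0, so library, software version and treatment cannot be told apart. The Control libraries are those used for Stress.

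In glia-like nuclei 2 of 17 tested genes passed, against 6.09% of all genes, and an unadjusted p under 0.05 was found for 7 (18.6% of all genes). Itgav rose. It was at 254 and 272 CPM in Control (263 ± 12.5, SD, n = 2), 226, 197 and 287 under Stress and 544 under Dexamethasone, from 370 UMIs. The Dexamethasone value lay above all 5 others, at a log2 fold change over Control of 1.14 ± 0.28 (SE; adjusted p = 0.0168, edgeR). Itga2 fell. It was at 384 and 388 in Control (386 ± 2.77, SD, n = 2), 422, 322 and 344 under Stress and 177 under Dexamethasone, from 120 UMIs. Here the Dexamethasone value lay below all 5 others, at a log2 fold change of -1.04 ± 0.29 (adjusted p = 0.0417, edgeR).

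Without Control 1 neither call was kept (Itgav adjusted p = 0.0545, Itga2 adjusted p = 0.0722, edgeR). Itgav passed in 10 other settings and Itga2 in 3, with 10 in which Itga2 kept its direction but not its call. The Itga2 call was lost without Control 2 (0.0798), Stress 2 (0.0623) or Stress 3 (0.0504), without the filter on low counts (0.108), after thinning to equal totals (0.117) and with a stricter filter of nuclei (0.433). Under DESeq2 it was lost too (0.10), while Itgav passed (0.0450). A change within nuclei and a change in the mix of glial clusters add up in these sums. Cluster 10 supplied 330 of the 370 Itgav UMIs of the Dexamethasone library. In that cluster Itgav was at 540.5 and 355 in Control (23 and 10 UMIs), 439.9, 185 and 324 under Stress and 671 under Dexamethasone. In cluster 7 the Dexamethasone value of 346 lay within the range of the others (176 to 426), and in cluster 9 its 139.9 was the lowest of 6.

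Fitted within a cluster alone, the Itgav estimate was 0.10 in cluster 7 (adjusted p = 0.975, edgeR) and -0.91 in cluster 9 (adjusted p = 0.389, edgeR). Itga2 was lowest under Dexamethasone in each of the 3 clusters: 226 against 281 to 630.0 in cluster 7, 198 against 302 to 404 in cluster 9 and 165 against 343 to 817 in cluster 10. Its estimates within clusters 7 and 9 were -1.38 (adjusted p = 0.306, edgeR) and -0.86 (adjusted p = 0.368, edgeR). Cluster 10 had too few Control nuclei to be fitted alone.

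**Figure D4:**
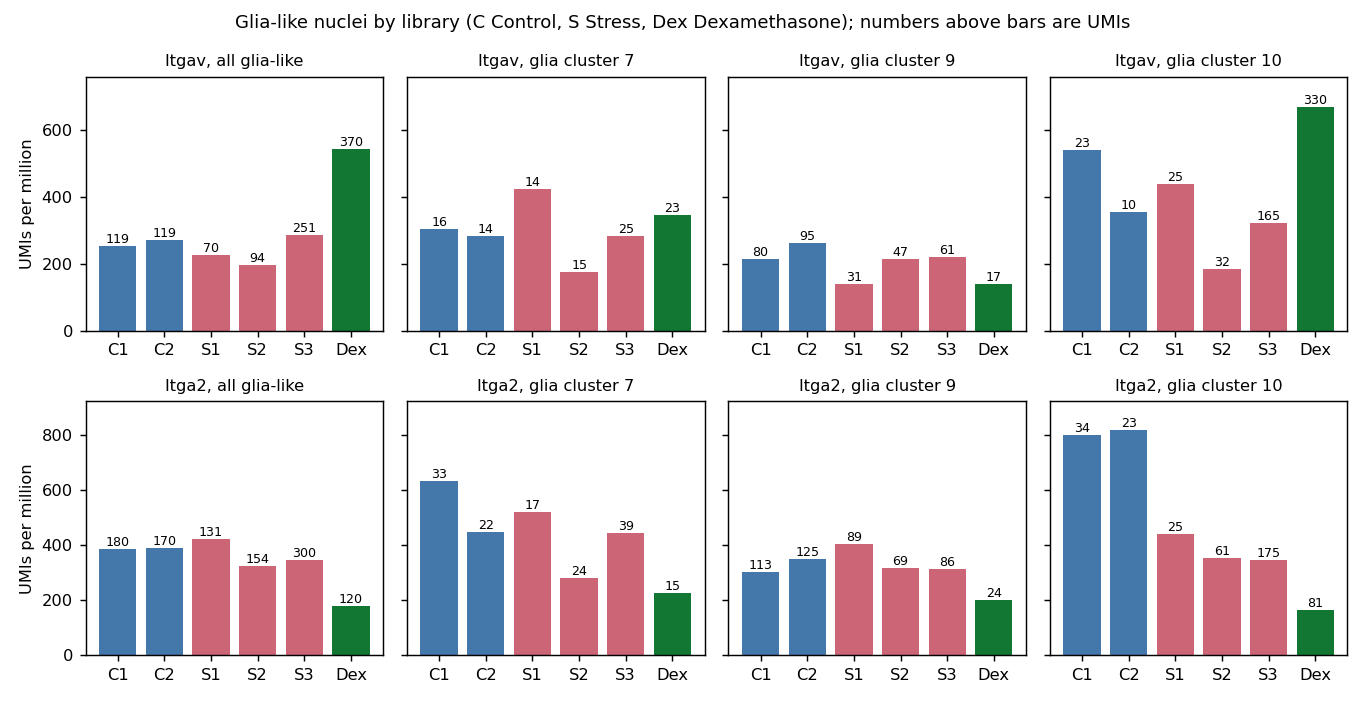
Itgav and Itga2 in glia-like nuclei and in each of their 3 clusters, in CPM; each bar is 1 library and the numbers above the bars are UMIs. The Dexamethasone bar of Itgav is the tallest over all glia-like nuclei (544) and in cluster 10 (671) but not in clusters 7 and 9, whereas that of Itga2 is the shortest in every panel.

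Markers of some other cells, but not of all, were highest in the same library. The 10 smooth muscle markers, all detected, summed in glia-like nuclei to 171 and 203 CPM in Control, 235, 245 and 420.3 under Stress and 793 under Dexamethasone, against 13017 to 19005 in smooth muscle-like nuclei. Of the lymphatic markers Ccl21a was left out, as its symbol occurs more than once in the files. The other 6, all detected, summed to 53.3 and 59.3 (Control), 90.2, 103 and 149 (Stress) and 216 (Dexamethasone). Macrophage markers, 9 of 10 detected with Cd163 at 0, summed to 12.8 and 20.5 (Control), 32.2, 16.7 and 26.3 (Stress) and 73.6 (Dexamethasone). Itgav itself was at 38.4 to 172 in smooth muscle-like and 49.7 to 539 in lymphatic endothelium-like nuclei (317 under Dexamethasone). The part of these other cells in the result was not tested.

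The stretches just before the start sites are shown for the 2 genes that passed, searched for 4 common promoter elements. Each is the 250 bases before the annotated start (RefSeq, GRCm38.p6), written 5′ to 3′ on the strand of the gene: Itgav at chr2:83724147-83724396 on the plus strand, with 64.4% G or C, and Itga2 at chr13:114932101-114932350 on the minus strand, with 60.8%.
Itgav: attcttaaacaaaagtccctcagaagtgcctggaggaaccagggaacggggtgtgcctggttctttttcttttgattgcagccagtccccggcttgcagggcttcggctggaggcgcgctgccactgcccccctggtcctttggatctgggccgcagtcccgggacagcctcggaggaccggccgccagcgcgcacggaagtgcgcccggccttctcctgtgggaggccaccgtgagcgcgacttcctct
Itga2: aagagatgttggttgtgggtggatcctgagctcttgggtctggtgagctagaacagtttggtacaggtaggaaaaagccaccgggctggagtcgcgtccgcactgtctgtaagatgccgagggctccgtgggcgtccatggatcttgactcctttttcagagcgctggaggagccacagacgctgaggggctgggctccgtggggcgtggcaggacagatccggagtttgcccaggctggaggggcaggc
Capitals would mark a match on either strand to the core of the glucocorticoid receptor palindrome (ACANNNTGT), an AP-1 element (TGANTCA), a GC box (GGGCGG) or a TATA element (TATAAA), and neither stretch holds one, so both are all in lower case. Of the 32851 stretches of this length in the table, 5.84%, 6.75%, 32.7% and 12.4% held them. Among the 23 integrin and laminin genes found there, 8 had a GC box (Itga3, Itga4, Itga5, Itgam, Itgb1, Itgb5, Lama5 and Lamb1), and Itgax had the receptor core and the AP-1 element.

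Among genes that did not pass in glia-like nuclei, Itga5 was at 6.40 and 16.0 in Control, 16.1, 8.37 and 10.3 under Stress and 45.6 under Dexamethasone (log2 fold change 2.11 ± 0.66, adjusted p = 0.0661, edgeR). Of its 31 UMIs in the Dexamethasone library, 17 were in the 12 nuclei of cluster 7, at 256 CPM, where both Control libraries had 0. Itga1, the neighbour of Itga2, was at 321 under Dexamethasone and 410.2 to 602 elsewhere (log2 fold change -0.68 ± 0.28, adjusted p = 0.193, edgeR). Itga4, Itga8 and Lama2 had estimates of -1.57 ± 0.61, 0.69 ± 0.28 and 0.99 ± 0.36, with adjusted p of 0.156, 0.189 and 0.132 (edgeR). For the laminin chains Lamc1, Lama4 and Lama5 they were -0.06 ± 0.31, 0.08 ± 0.28 and 0.23 ± 0.42. The median was 0.23 over the 17 genes and -0.05 over all genes.

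In the other 4 classes no gene passed, by edgeR or by DESeq2. In neuron-like nuclei 0 of 13 passed (0.339% of all genes), and an unadjusted p under 0.05 was found for 0 (11.5% of all genes). The lowest p-values were those of Lamb1 at 1.51 ± 0.79 (adjusted p = 0.495, edgeR) and Itga6 at -0.54 ± 0.38 (adjusted p = 0.637, edgeR), in a library whose neuron-like nuclei were mostly of cluster 12. In smooth muscle-like nuclei 0 of 16 passed (0.903% of all genes), and an unadjusted p under 0.05 was found for 4 (11.4% of all genes). Itga4 was at 115 and 83.3 in Control, 77.1, 104 and 59.3 under Stress and 23.6 under Dexamethasone (log2 fold change -2.17 ± 0.72, adjusted p = 0.199, edgeR). Itgav was at 38.4 and 117 in Control and 172 under Dexamethasone (1.22 ± 0.55, adjusted p = 0.399, edgeR), and Lama5 and Itga1 had estimates of 1.03 ± 0.64 and -0.79 ± 0.35.

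In fibroblast-like nuclei 0 of 10 passed (2.39% of all genes), and an unadjusted p under 0.05 was found for 2 (11.8% of all genes). Itga5 was at 57.3 and 36.8 in Control (3 and 2 UMIs), 14.1, 22.9 and 27.6 under Stress and 258 under Dexamethasone (24 UMIs), a log2 fold change of 2.43 ± 1.07 (adjusted p = 0.340, edgeR). It stood above the other libraries in both fibroblast-like clusters, at 338 against 28.0 to 86.4 in cluster 11 and 193 against 0 to 34.2 in cluster 17. Itgb8 had 9 and 2 UMIs in Control, 7, 4 and 10 under Stress and 0 under Dexamethasone, which allows up to 32.2 CPM there by counting error. The chains of fibroblast laminin had estimates of -0.18 ± 0.36 (Lama2), 0.14 ± 0.56 (Lamb1) and 0.17 ± 0.46 (Lamc1).

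In lymphatic endothelium-like nuclei 0 of 7 passed (0.278% of all genes), and an unadjusted p under 0.05 was found for 0 (6.88% of all genes). Itga1 had an estimate of -1.92 ± 1.00 (adjusted p = 0.753, edgeR). Lama4, at 685 under Dexamethasone and 939 to 1504 elsewhere, had one of -0.77 ± 0.45 (adjusted p = 0.794, edgeR). Itga5 had positive estimates in glia-like and fibroblast-like nuclei and a negative one in smooth muscle-like nuclei (-1.15 ± 0.53, adjusted p = 0.402, edgeR), where its median level was highest. Differences between classes were not tested for this treatment.

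**Figure D5:**
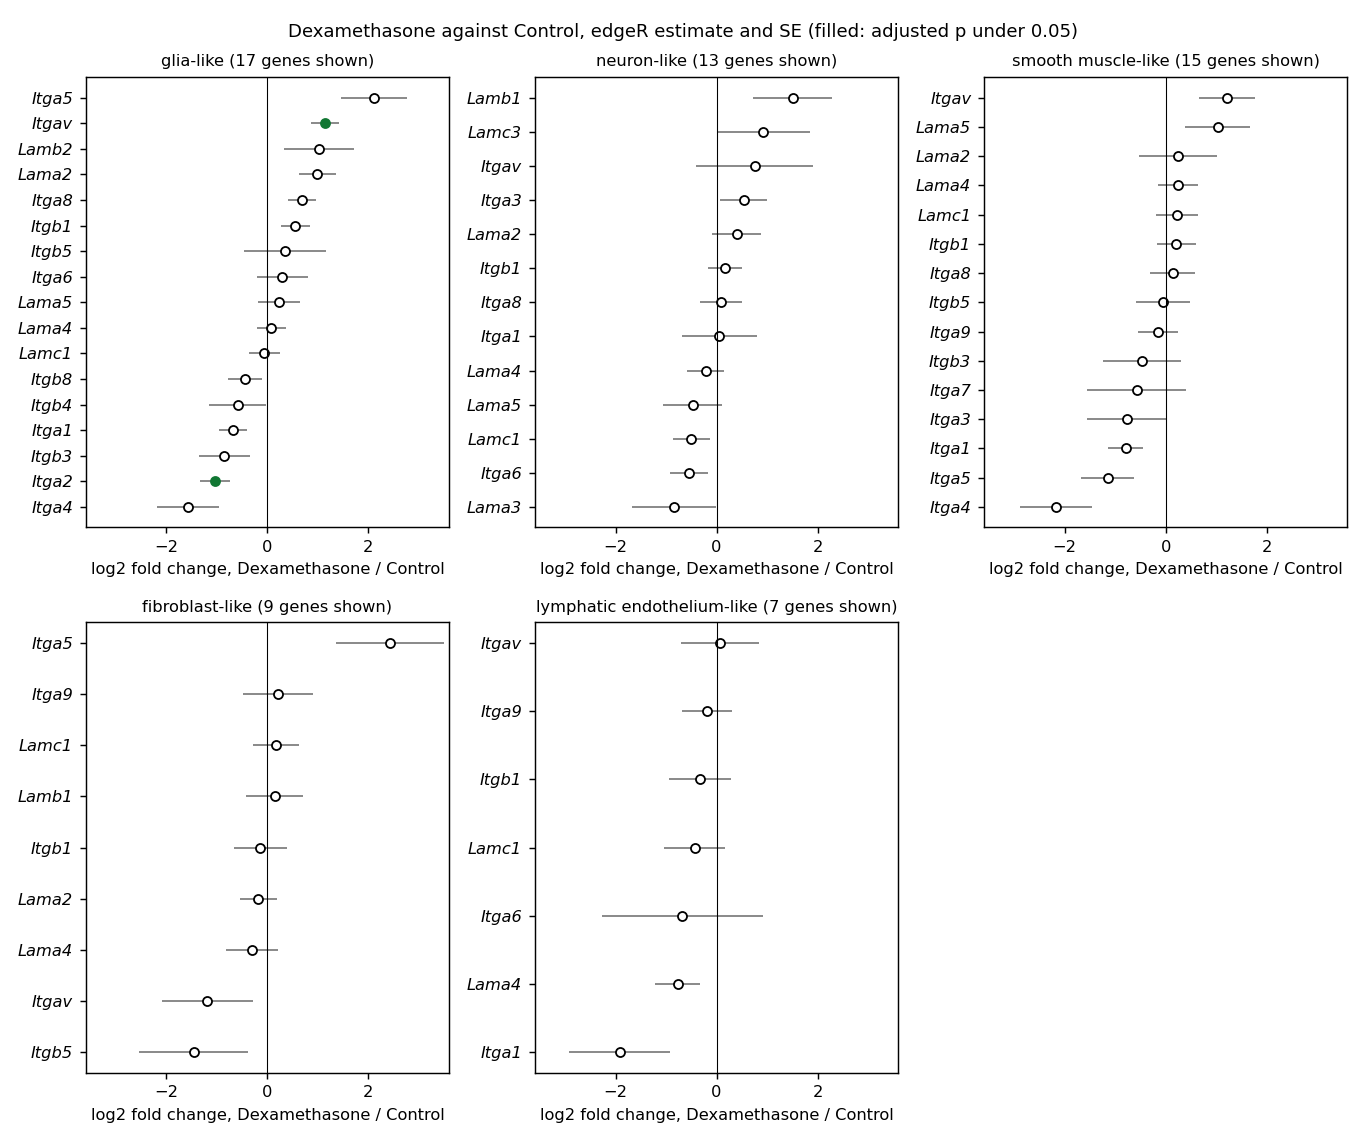
Log2 fold change of the 1 Dexamethasone library over Control with its SE (edgeR, fitted over all 6 libraries) for tested integrin and laminin genes in 5 classes; filled points have an adjusted p under 0.05, and Itgb8 in fibroblast-like nuclei, with 0 Dexamethasone UMIs, is not drawn. The genes with an adjusted p under 0.05 are Itgav (1.14) and Itga2 (-1.04) in glia-like nuclei.

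Genes that work with integrins and laminins were read from 3 lists. Of the intracellular adhesion machinery, which links integrin tails to actin, 18 of 26 genes were tested in glia-like nuclei for Dexamethasone, and 3 rose (5.44% of all genes) and 0 fell. Parva, a parvin that holds integrin-linked kinase to actin, was at 96 and 95.8 CPM in Control, 99.9, 165 and 157 under Stress and 291 under Dexamethasone (log2 fold change 1.69 ± 0.30, adjusted p = 0.00146, edgeR). Bcar1, a scaffold of focal adhesions, was at 44.8 and 13.7 (Control), 58.0, 64.9 and 91.6 (Stress) and 109 (Dexamethasone), a log2 fold change of 1.96 ± 0.46 (adjusted p = 0.0127, edgeR). Pxn, which encodes the adaptor paxillin, was at 89.6 and 98.1 (Control), 87.0, 92.1 and 134 (Stress) and 184 (Dexamethasone), a log2 fold change of 1.06 ± 0.31 (adjusted p = 0.0497, edgeR).

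These 3 were measured over the same mix of glial clusters, whose part was not tested. Within cluster 9 alone the estimates were 0.39 for Parva, -0.41 for Bcar1 and 0.15 for Pxn. Pxn kept its call in 3 other settings, those that leave out a Stress library, and lost it in 9, with an adjusted p (edgeR) of 0.146 without Control 1, 0.121 without Control 2 and 0.0506 with the stricter filter. Bcar1 lost its call without Control 2 (adjusted p = 0.0958, edgeR), with the stricter filter (0.219), under DESeq2 (0.0765) and within cluster 9. Parva lost it with the stricter filter (adjusted p = 0.115, edgeR) and within clusters 7 and 9. The median over the list was 0.03 and over all genes -0.05. Under DESeq2 1 of the list passed. In each of the other comparisons 0 genes of this list passed by edgeR or DESeq2, with 0 to 4 genes at an unadjusted p under 0.05 where 6.88 to 13.1% of all genes were. The highest such count was 4 of 16 (11.5% of all genes), in neuron-like nuclei under Dexamethasone. Of the basement membrane partners and laminin receptors other than integrins (type IV collagen, nidogens, perlecan, agrin, dystroglycan and others), 0 passed in any comparison by edgeR or DESeq2, with 0 to 2 of 1 to 15 tested genes at an unadjusted p under 0.05 where 6.88 to 18.6% of all genes were.

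Other integrin ligands gave their calls in fibroblast-like nuclei. Icam1, a ligand of the leukocyte integrins, had 0 and 1 UMIs in Control, 16, 37 and 23 under Stress and 16 under Dexamethasone. It rose under Stress, the 1 gene of 7 tested to pass (1.16% of all genes rose; log2 fold change 4.63 ± 0.85, adjusted p = 0.0144, edgeR), with a ratio of counts of 30.4 (95% counting interval 5.29 to 1216). It also rose under Dexamethasone (log2 fold change 4.0 ± 1.04, adjusted p = 0.0259, edgeR), with a ratio of 18.3 (2.85 to 768). Both rest on the same 1 Control UMI. The Stress call was lost without Control 1 (adjusted p = 0.0933, edgeR), Control 2 (0.0520) or Stress 2 (0.122), and with the replicate block (0.333); DESeq2 gave no adjusted p for it.

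Thbs1, which encodes a thrombospondin, and Ctgf, a matricellular ligand, rose under Dexamethasone, so that 3 of 8 tested ligands rose (2.18% of all genes) and 0 fell. Thbs1 was at 76.4 and 18.4 CPM in Control, 282, 149 and 55.3 under Stress and 644 under Dexamethasone (log2 fold change 3.75 ± 0.71, adjusted p = 9.5e-04, edgeR). Ctgf was at 57.3 and 55.2 (Control), 141, 229 and 111 (Stress) and 579.7 (Dexamethasone), a log2 fold change of 3.34 ± 0.61 (adjusted p = 5.9e-04, edgeR). None of the 3 passed without Control 1 (adjusted p from 0.0578 to 0.295, edgeR), without Control 2 (0.0570 to 0.177) or under DESeq2 (0.0629 for Thbs1, 0.0648 for Ctgf and 0.392 for Icam1). The Dexamethasone call of Icam1 was also lost without the mitochondrial filter (adjusted p = 0.122, edgeR). In the other classes 0 ligands passed by edgeR or DESeq2, with 0 to 3 of 0 to 7 tested at an unadjusted p under 0.05 where 6.88 to 18.6% of all genes were. Under Dexamethasone the median log2 fold change over the tested ligands was 1.22 in fibroblast-like nuclei (all genes -0.05) and -1.16 in smooth muscle-like nuclei (all genes -0.02). In the latter 6 of 6 estimates were below 0 and 3 had an unadjusted p under 0.05, where 11.4% of all genes did.

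Markers of other cells differed between libraries in the same fibroblast-like sums. The 5 mesothelium markers, all detected, summed to 19.1 and 0 CPM (Control), 84.6, 103 and 396 (Stress) and 0 (Dexamethasone). Stress lay above Control without overlap, and Dexamethasone did not. Of the 7 B or plasma cell markers 3 were detected (Cd79a, Cd79b, Mzb1 and Pax5 at 0), with sums of 3935 and 0 CPM (Control), 42.3, 11.5 and 73.7 (Stress) and 10.7 (Dexamethasone), so that Control 1 stood far above the rest. The 6 lymphatic endothelium markers other than Ccl21a, all detected, summed to 95.5 and 147 CPM (Control), 226, 22.9 and 129 (Stress) and 386 (Dexamethasone). Of the 8 vascular endothelium markers 3 were detected (Cdh5, Emcn, Plvap, Ptprb and Egfl7 at 0), with sums of 19.1 and 0 CPM (Control), 0, 22.9 and 9.21 (Stress) and 96.6 (Dexamethasone). Both endothelial sums were highest under Dexamethasone. Their part in the calls of Icam1, Thbs1 and Ctgf was not tested.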

How the data were processed

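The authors deposited UMI counts per gene and barcode from 10x Genomics nuclei; per the file headers Cell Ranger 4.0.0 wrote those of Control and Stress and 5.0.1 those of Dexamethasone, while the submitters' processing notes name Cell Ranger 5 or 5.0 and mm10. Whether intronic reads were counted is not given in the sources used here, and nuclear UMIs of long genes depend on it. The other deposited files hold barcodes and gene symbols.

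Kept barcodes had 300 genes or more and no more than 5% of UMIs from mitochondrial genes, and Scrublet removed 31 doublets (0.896%). Clusters came from 2000 variable genes without the 37 described here, 30 principal components, 15 neighbours and Leiden resolution 1 (scanpy 1.11.5, Python 3.11.15). Names rest on 17 marker lists of 138 genes: a score of 0.5 for neurons and glia and 1.5 for others, and at least 3 markers in at least 10% of nuclei. Cell barcodes shared by a pair of libraries numbered 0 to 3. UMIs were summed per library and class (at least 10 nuclei) and tested with edgeR 4.0.16 in R 4.3.3 (filterByExpr, TMM, quasi-likelihood F test, Benjamini-Hochberg over all genes tested). Stress was fitted on 5 libraries and Dexamethasone on 6. Levels are CPM over all genes, and limits at 0 use 3 counts. Intervals cover counting error only. DESeq2 1.42.0, no low-count filter, thinning to equal totals, 2 other filters of nuclei, left-out libraries and single clusters were tried as alternatives, and adding the unnamed neuron-scoring clusters was chosen after seeing the data. The test of Stress was checked on simulated counts with a fixed spread, for glia-like and neuron-like nuclei only. The Dexamethasone fit, the interaction and the other classes were not checked in this way. The values of 1 gene, included in the counts, are not reported here. The members and lists were chosen with earlier results of these data known. Named by rule were every member for its levels, the members and partner genes that passed, and, where none passed, up to 2 members in each direction by smallest p; other members of a comparison were named after their values were seen.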

Additional observations from a re-analysis of the deposited data

Results flagged for a closer look

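Lama4, the laminin alpha chain of endothelium and several other cells, lay in opposite directions between classes under the same contrast of Stress and Control. Its log2 fold change was 0.27 ± 0.20 in glia-like, -0.73 ± 0.28 in neuron-like and 1.02 ± 0.31 in smooth muscle-like nuclei (edgeR, SE). Lama4 was flagged because its groups did not overlap, in opposite directions between classes, so the lack of overlap is no separate evidence. Groups did not overlap for 29.2% of all genes tested in glia-like, 26.2% in neuron-like and 30.1% in smooth muscle-like nuclei. The adjusted p-values were 0.626, 0.459 and 0.226 (edgeR), so none passed. The difference between glia-like and neuron-like nuclei was tested and did not pass (1.06 ± 0.36, adjusted p = 0.301, edgeR). The difference between smooth muscle-like and neuron-like nuclei was not tested. In neuron-like nuclei, without the mitochondrial filter, the estimate was 0.058.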

How the results depend on the processing

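The number of integrin and laminin genes called stayed at 0 for Stress and for Dexamethasone outside glia-like nuclei, except that Lama3 passed as lower in glia-like nuclei without the mitochondrial filter (1 gene; -2.42, edgeR adjusted p = 0.0129) and in neuron-like nuclei without the filter on low counts (1 gene; -2.49, edgeR adjusted p = 0.00272), and 4 passed under Dexamethasone in neuron-like nuclei without the mitochondrial filter. For Dexamethasone in glia-like nuclei (2 genes) the count was 1 with DESeq2, 1 without the filter on low counts, 1 after thinning to equal totals, 1 with the stricter filter of nuclei, 4 without the mitochondrial filter, 0 to 2 leaving out a library, and 0 and 0 within clusters 7 and 9 (fewer nuclei). Counts over all genes moved more. Stress in glia-like nuclei (137): 88 thinned, 32 stricter, 291 without the mitochondrial filter, 35 to 174 leaving out a library, 254 without Control 1 and Stress 1 together, 13 and 25 within clusters 7 and 9. Stress in neuron-like nuclei (0): 11 with DESeq2, 98 without the filter on low counts, 1 thinned, 11 without the mitochondrial filter, 0 to 2 leaving out a library, 186 without both. Stress in smooth muscle-like nuclei (10): 41 without the filter on low counts, 2 without the mitochondrial filter, 0 to 25 leaving out a library, 103 without both. Stress in fibroblast-like nuclei (25): 53, 12, 6 to 28 and 78 in the same order. Stress in epithelium-like nuclei (3): 11 with DESeq2, 22 without the filter on low counts, 0 thinned, 0 to 11 leaving out a library, 0 without both. Stress in lymphatic endothelium-like nuclei (0): 13 without the filter on low counts, 0 to 1 leaving out a library, 18 without both. Dexamethasone in glia-like nuclei (469): 211 with DESeq2, 296 thinned, 233 stricter, 312 to 491 leaving out a library, 28 and 52 within clusters 7 and 9. Dexamethasone in neuron-like nuclei (29): 15 with DESeq2, 193 without the filter on low counts, 6 stricter, 321 without the mitochondrial filter, 0 to 32 leaving out a library, 0 with the 2 unnamed neuron-scoring clusters. Dexamethasone in smooth muscle-like nuclei (35): 8 with DESeq2, 121 without the filter on low counts, 18 stricter, 15 to 93 leaving out a library. Dexamethasone in fibroblast-like nuclei (68): 23 with DESeq2, 30 to 87 leaving out a library. Dexamethasone in lymphatic endothelium-like nuclei (4): 19 without the filter on low counts, 8 without the mitochondrial filter, 0 to 6 leaving out a library. The difference between glia and neurons (17): 0 with DESeq2, 28 without the filter on low counts, 3 thinned, 127 without the mitochondrial filter, 9 with the 37 genes among the clustering genes, 5 to 54 leaving out a library, 48 without both. Estimates that turned sign, on the log2 scale: Stress in neuron-like nuclei, Itga8 (0.36) -0.19 stricter, -0.16 without the mitochondrial filter and -0.050 to 1.10 leaving out a library, and Lama4 0.058 without the mitochondrial filter. Stress in fibroblast-like nuclei, Itga9 (0.27) -0.35 to 1.5 leaving out a library and -0.26 without both. Stress in lymphatic endothelium-like nuclei, Itgav (0.059) -0.017 with DESeq2, -0.75 to 2.71 leaving out a library and -0.58 without both, Lama4 (-0.15) 0.16 without the filter on low counts and -0.31 to 0.16 leaving out a library, and Itga9 (0.033) -0.23 thinned and -0.025 without both. Dexamethasone in glia-like nuclei, within cluster 9, Itgav -0.91 and Bcar1 -0.41. Dexamethasone in neuron-like nuclei, Lamc1 0.25 thinned, Itga3 -0.66 stricter, and Itga6 0.54 without the mitochondrial filter, 0.16 with the 37 genes among the clustering genes and 0.018 with the unnamed clusters. Dexamethasone in fibroblast-like nuclei, Lamc1 (0.17) -0.038 thinned, -0.17 without the mitochondrial filter and -0.18 to 0.57 leaving out a library. Dexamethasone in lymphatic endothelium-like nuclei, Itgav (0.072) -0.28 thinned and -0.76 to 2.81 leaving out a library. The difference for Itgb8 was 1.42 thinned. Of the other single-gene values, 527 kept direction and call and 41 lost the call; the cause of these changes was not tested. The labels do not say whether replicate numbers pair the libraries. Deviations from the group means of same-numbered Control and Stress libraries correlated at -0.15 and -0.02 in glia-like and 0.04 and 0.10 in neuron-like nuclei. The deviations of the 2 Control libraries mirror each other, so this check cannot decide on pairing. With the replicate block the counts for Stress were 31 in neuron-like, 30 in smooth muscle-like, 0 in fibroblast-like and 36 in epithelium-like nuclei, and the estimates in lymphatic endothelium-like nuclei -0.50 for Itgav and 0.027 for Lama4. Not run, for want of nuclei: glial cluster 10 alone, the stricter filter in fibroblast-like and lymphatic endothelium-like nuclei, no mitochondrial filter in epithelium-like nuclei for Stress, and Dexamethasone in epithelium-like nuclei. The top class of the 25 genes was kept for 22 with the stricter filter and for 17 without the mitochondrial filter. The 8 genes that changed in the latter included Lama3, Lamb3, Itgb4 and Itgb6, whose top class was epithelium-like before. In that setting 7 classes were compared, a class needing 10 or more nuclei in at least 3 libraries. A library had fewer than 10 epithelium-like nuclei. Whether epithelium-like nuclei were among the 7 is not shown here, so these changes need not mean a lower epithelial level.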
